A study of Mus musculus with 4 samples.

Results

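Transcripts of 9 receptors of the tumour necrosis factor (TNF) receptor superfamily were followed in regulatory T cells (Tregs) of the mouse liver. They are listed as TNFRSF1A, TNFRSF1B, TNFRSF4, TNFRSF8, TNFRSF9, TNFRSF14, TNFRSF18, TNFRSF25 and CD27, and are 9 of the 24452 genes in the deposited table. All 9 were found by symbol. The set was chosen by family, with the knockout comparison of these same libraries already known, in which Tnfrsf25 stood out as higher. The CPM values of that comparison are therefore given for the 9 genes as a description. How many of them passed in the fit over all genes is counted once, beside the share of all genes that passed, and supports nothing.

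The study sequenced RNA from liver Tregs of young mice in 2 groups, wild type (Altre-WT) and knockout (Altre-KO) for Altre, which is transcribed in Tregs as a long non-coding RNA. Each group has 2 libraries. The numerical age, the strain, any allele beside Altre, the way the knockout was made, and whether a library holds 1 mouse or a pool are details that the labels do not give. The spread between the libraries of a genotype may thus be technical. The limma standard errors measure only spread of this kind, and pool it across genes of like level. An SE is therefore not the spread of that gene alone.

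TNF receptor superfamily proteins bind trimeric ligands through cysteine-rich repeats outside the cell. Most of the T cell members recruit TRAF adaptors through short motifs in their tails and switch on NF-kB and MAP kinases, while TNFR1 and DR3 carry a death domain that recruits TRADD. On Tregs, GITR, OX40, TNFR2 and DR3 act as costimulatory receptors: agonists of TNFR2 and DR3 are known to expand these cells, and GITR and OX40 are long-used Treg surface markers.

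The 4 libraries held 1828773 to 3266132 estimated reads on listed genes, and the share of all reads that fell on listed genes was 32.8% in knockout replicate 1 against 18.8% to 21.5% in the others. Levels are in CPM, a read count scaled to a common total, which the authors scaled to the listed genes of each library. The filter on low values asked for 4.22 CPM in at least 2 libraries and left 10486 genes to test. All 9 receptor genes passed this filter, 8 of them in each of the 4 libraries, while Tnfrsf8 lay under it in wild-type replicate 2. The defining Treg genes were present in every library: Cd4 at 527 to 547 CPM, Ikzf2 at 1226 to 1272 CPM, Ctla4 at 329 to 411 CPM and Foxp3 at 79.5 to 162 CPM, lowest in knockout replicate 1. Of 5 hepatocyte markers, Alb, Ttr and Fabp1 were listed at 0 in all libraries, and the 2 CD8 markers summed to 5.08 to 9.25 CPM. The 8 myeloid markers summed to 153 and 256 CPM in Altre-WT and 246 and 139 in Altre-KO, with Lyz2 the most abundant at 66.1 to 165 CPM. Markers of NK cells summed to 19.5 to 33.1 CPM, of B cells to 27.5 to 38.3 CPM and of endothelial and stellate cells to 175 to 224 CPM, most of it Pecam1. Stab2, a scavenger receptor of sinusoidal endothelium in the same list, was at 6.02 and 5.04 CPM in Altre-WT and 0.92 and 1.27 in Altre-KO. It reached the filter of 4.22 CPM only through the wild-type libraries. Pecam1, at 172 and 215 CPM in Altre-WT and 174 and 208 in Altre-KO, overlapped. So did the rest of that list, with Cdh5 at 0.31 to 2.94 CPM and Col1a1, Dcn and Lrat at 3.28 CPM or less. The sum over that list thus follows Pecam1 almost alone. The part of endothelial RNA in the receptor values was not tested. In these bulk samples, fewer cells that express a gene and less RNA per cell cannot be told apart.

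Of the 9 genes, 7 lie on chromosome 4 within 10.8 Mb and 2 on chromosome 6, 112 kb apart (GRCm38, GENCODE M21). Tnfrsf4 (156013843 to 156016612) and Tnfrsf18 (156026164 to 156028895) are neighbours separated by 9552 bases, and Tnfrsf1b (145213463 to 145246870) lies 20267 bases from Tnfrsf8 (145267137 to 145315164). Between these pairs lie Tnfrsf9 (150914562 to 150946102), Tnfrsf25 (152115934 to 152120119) and Tnfrsf14 (154921933 to 154928563). On chromosome 6 lie Cd27 (125232622 to 125237010) and Tnfrsf1a (125349362 to 125362484). All 9 are annotated as protein-coding.

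RefSeq promoter windows (GRCm38.p6) of 300 bases, from 250 before to 50 after a start, were matched for all 9 genes, in 11 windows, and each motif was searched on both strands. A STAT-type motif, TTCNNNGAA, is the kind of sequence that STAT5 downstream of interleukin-2 recognises. It occurred in windows of 5 of the 9 genes (5 of 11 windows), and in 8.30% of all 32851 windows. The matches are shown so that the receptors can be compared, with the motif in capitals and up to 10 bases on each side.

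Tnfrsf1b: agcgcattcaTTCCCGGAAgagatgctgg

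Tnfrsf9: caacagctgaTTCCAAGAAacccttcaga

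Tnfrsf25: gggcctccacTTCTCAGAAggcatgg

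Tnfrsf18: tgctctacacTTCACAGAAggcctttaca

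Tnfrsf1a: gcttccTTCCGTGAAattgacaaca

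The Tnfrsf1b match (chr4:145247033-145247061, minus strand) lies upstream of the GENCODE gene. Those of Tnfrsf9 (chr4:150927853-150927881, plus strand) and Tnfrsf25 (chr4:152116317-152116342, plus strand) lie in introns. Those of Tnfrsf18 (chr4:156026213-156026241, plus strand) and Tnfrsf1a (chr6:125349473-125349497, plus strand) lie in an untranslated exon of a GENCODE transcript.

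The NF-kB consensus occurred in windows of 2 members and in 4.51% of all windows. The AP-1 motif TGANTCA occurred in windows of the same 2 members and in 7.81% of all. NF-kB and AP-1 are the factors that these receptors switch on, so both NF-kB matches are shown in capitals with 9 bases on each side.

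Tnfrsf9: agagcagctGGGGATTTCCCaggaggccc

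Tnfrsf8: caaaacgcaGGGGAGCCCCctgcgtgcg

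The Tnfrsf9 stretch (chr4:150927947-150927975, plus strand) holds 2 overlapping matches that begin 43 and 42 bases before the downstream start of that gene, and lies in an untranslated exon of a GENCODE transcript. The Tnfrsf8 stretch (chr4:145315314-145315341, minus strand) lies upstream of the gene, with its match beginning 168 bases before the start. The AP-1 motif began 15 bases before the start in Tnfrsf9 and 132 in Tnfrsf8. The CRE motif TGACGTCA, the forkhead motif TGTTTAC and the RUNX motif TGTGGTT were found in 0 of the 11 windows, and in 1.79%, 3.65% and 5.27% of all. A match is a run of letters, not a bound site, and a window with no match leaves the factor undecided.

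Per length, the Treg costimulatory receptors and CD27 made up most of the receptor message. Levels per kb of merged exon were highest for Tnfrsf18, the GITR gene, at 159 ± 22.6 CPM per kb (SD, n = 4 libraries). Tnfrsf4, the OX40 gene, followed at 143 ± 16.7, and Cd27, a costimulatory receptor of resting and memory T cells, at 137 ± 5.94 CPM per kb. Tnfrsf1b, the TNFR2 gene, was at 91.8 ± 9.03 and Tnfrsf9, the 4-1BB gene, at 50.8 ± 6.09 CPM per kb. Lower still stood Tnfrsf25, the DR3 gene, at 37.0 ± 10.01, Tnfrsf14, the HVEM gene, at 21.2 ± 3.76, Tnfrsf1a, the TNFR1 gene, at 7.28 ± 1.77 and Tnfrsf8, the CD30 gene, at 2.77 ± 1.08 CPM per kb.

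The top 3 did not differ beyond their spread: Tnfrsf18 exceeded Tnfrsf4 in 3 of 4 libraries and Tnfrsf4 exceeded Cd27 in 3 of 4, with overlapping ranges. With the length of the longest transcript in place of merged exons, Cd27 came first, before Tnfrsf18 and Tnfrsf4, and the places from the fourth down were the same. Tnfrsf9 and Tnfrsf25 also overlapped, with Tnfrsf25 the higher of the 2 in knockout replicate 2. Every other pair of neighbours in the order was separated in all 4 libraries.

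As shares of the summed level per kb of the 9 genes, Tnfrsf18 held 21.97% and 22.9% in wild type and 27.3% and 25.4% in knockout. Tnfrsf25 held 4.11% and 4.70% in wild type and 6.51% and 7.47% in knockout. For both genes the knockout shares lay above the wild-type shares. The knockout shares of Tnfrsf9, Tnfrsf14 and Tnfrsf1a all lay under their wild-type shares. Those of Tnfrsf4, Cd27, Tnfrsf1b and Tnfrsf8 overlapped. By level, 30.8% of all tested genes did not overlap between genotypes. No such rate was worked out for shares, which depend on each other, and nothing is read from their separation. Tnfrsf9 held 8.34% and 8.35% in wild type and 7.67% and 6.86% in knockout, although its own level in knockout replicate 1, at 53.9 CPM per kb, lay between the wild-type levels of 53.6 and 54.0. The summed level per kb was highest in that library, at 703 CPM per kb against 607 to 647 in the others. Tnfrsf14 held 3.61% and 3.66% in wild type and 3.15% and 2.57% in knockout. The summed CPM of the 9 genes was 1382 and 1406 in wild type and 1453 and 1315 in knockout, so the totals overlapped.

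**Figure D1:**
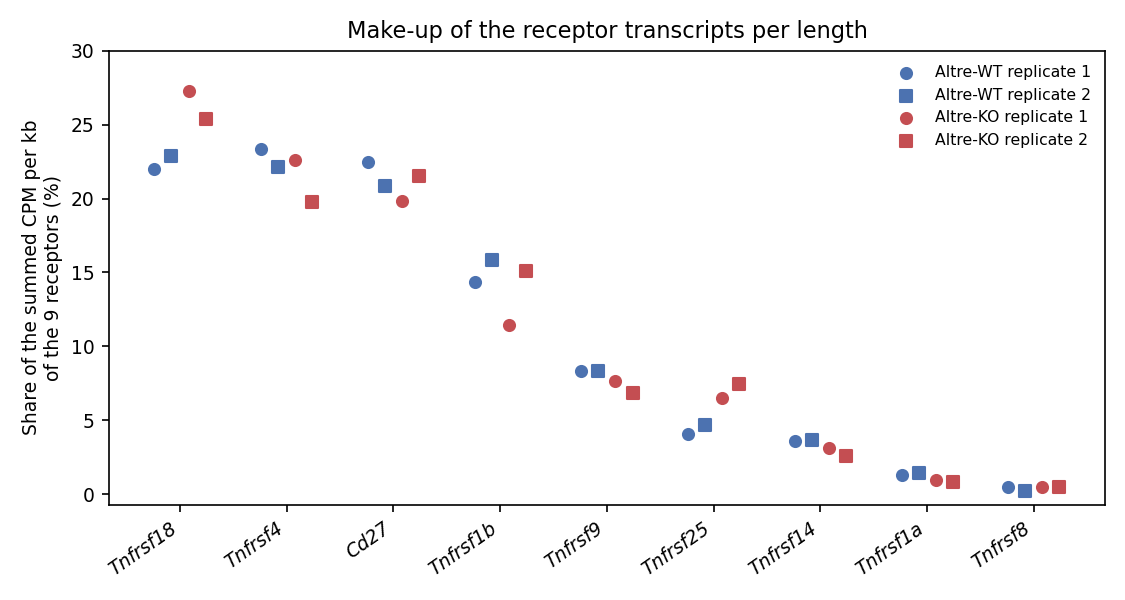
Share of each receptor gene in the summed CPM per kb of the 9 genes (y axis, percent), with 1 point per library, blue for Altre-WT and red for Altre-KO, circles for replicate 1 and squares for replicate 2. Tnfrsf18 ranged from 21.97% to 27.3% and Tnfrsf8 from 0.188% to 0.516%.

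Among the TRAF-recruiting receptors, Tnfrsf18 was at 215 and 226 CPM in Altre-WT and 292 and 235 in Altre-KO. Both knockout values lay above both wild-type values, with knockout replicate 1 well apart. The difference was 0.25 (SE 0.16) on the log2(CPM + 1) scale, or 1.20-fold, and fell to 0.09 without knockout replicate 1. An antisense gene, Gm16008, spans all 2732 bases of Tnfrsf18, introns included, on the other strand. The longest stretch found in transcripts of both was 254 bases. The labels do not say whether the authors' counting used strand.

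Its neighbour Tnfrsf4 was at 205 and 195 CPM in Altre-WT and 217 and 164 in Altre-KO. The knockout libraries lay on either side of the wild-type pair. Its log2 difference was -0.09 (SE 0.17), and 0.12 without knockout replicate 2. Per length, the ratio of Tnfrsf18 to Tnfrsf4 was 0.941 and 1.03 in wild type and 1.21 and 1.28 in knockout. The ratio was thus higher in both knockout libraries, although Tnfrsf4 itself overlapped. How often the ratio of other gene pairs separates in this way was not worked out, and nothing is read from it.

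Tnfrsf1b, which encodes the TNF receptor that Tregs carry at high level, was at 353 and 392 CPM in Altre-WT and 307 and 349.7 in Altre-KO. The groups did not overlap, but knockout replicate 2 lay close under wild-type replicate 1. The log2 difference was -0.18 (SE 0.15), and -0.09 without knockout replicate 1.

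Tnfrsf9, an activation-induced receptor, was at 146 and 147 CPM in Altre-WT and 147 and 113 in Altre-KO. Only knockout replicate 2 stood apart: the log2 difference was -0.18 (SE 0.18) with it and 0.00 without it. The Camta1 gene runs through Tnfrsf9 on the other strand, at 12.0 and 8.41 CPM in Altre-WT and 4.29 and 3.81 in Altre-KO. No near-identical stretch of at least 100 bases was found between transcripts of Camta1 and Tnfrsf9.

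Cd27 had the smallest spread within genotypes. It was at 337 and 314 CPM in Altre-WT and 324 and 304 in Altre-KO, overlapping, with a log2 difference of -0.05 (SE 0.15). Vamp1, a vesicle fusion gene on the other strand, spans the whole of Cd27. It was at 58.0 and 44.98 CPM in Altre-WT and 60.9 and 40.6 in Altre-KO. Between transcripts of Vamp1 and Cd27, no near-identical stretch of at least 100 bases was found.

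The death-domain receptors lay on opposite sides of the comparison. Tnfrsf25, whose ligand TL1A costimulates T cells, was at 60.2 and 69.4 CPM in Altre-WT and 104 and 103 in Altre-KO. The knockout libraries lay within 1 CPM of each other and above both wild-type libraries, 1.60-fold in the means, with a log2 difference of 0.67 (SE 0.20). Leaving out wild-type replicate 1 gave 0.57, and leaving out wild-type replicate 2 gave 0.78. These values rested on 110 to 340 estimated reads per library. The authors' deposited table gave Tnfrsf25 a log2 fold change of 0.68, a p-value of 0.060 and an adjusted p-value of 1.

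Tnfrsf1a, the receptor through which TNF can signal cell death, was at 21.3 and 23.5 CPM in Altre-WT and 17.5 and 13.1 in Altre-KO. Both knockout values lay under both wild-type values, 1.47-fold in the means, with a log2 difference of -0.54 (SE 0.35). Leaving out knockout replicate 2 gave -0.34, and leaving out knockout replicate 1 gave -0.73. The gene rested on 31 to 57 estimated reads per library, so that counting alone gives an error of 13.2% to 17.96%. Per length, Tnfrsf1b exceeded Tnfrsf1a 11.2-fold and 11.3-fold in wild type and 12.0-fold and 18.1-fold in knockout. Tnfrsf1a, Tnfrsf14 and the summed level of the 8 myeloid markers were all lowest in knockout replicate 2. So were Tnfrsf4, Tnfrsf9, Cd27 and 27.7% of all tested genes. The myeloid sum was 139 CPM there and 153 in wild-type replicate 1, where Tnfrsf1a was at 21.3 and Tnfrsf14 at 33.4 CPM. The part of myeloid RNA in the levels of Tnfrsf1a and Tnfrsf14 was not tested.

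Together the death-domain genes made up 5.38% and 6.11% of the summed level per kb in wild type and 7.47% and 8.31% in knockout. Tnfrsf25 alone carried the higher share in knockout, since the share of Tnfrsf1a was 1.28% and 1.40% in wild type and 0.959% and 0.835% in knockout.

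Tnfrsf14, which binds LIGHT and also the inhibitory receptor BTLA, was at 33.4 and 34.1 CPM in Altre-WT and 31.8 and 22.4 in Altre-KO. The groups did not overlap, with knockout replicate 2 far below the other libraries. The log2 difference was -0.32 (SE 0.29), and -0.08 without knockout replicate 2. A stretch of 121 to 162 bases in Tnfrsf14 transcripts is at least 95% identical to transcripts of 40 other genes, so a few of its reads could be shared.

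Tnfrsf8, a receptor of activated lymphocytes, was at 11.5 and 4.20 CPM in Altre-WT and 12.6 and 10.2 in Altre-KO. The groups overlapped, with wild-type replicate 2 apart at 10 estimated reads. The log2 difference was 0.61 (SE 0.49), 1.24 without wild-type replicate 1 and -0.02 without wild-type replicate 2.

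**Figure D2:**
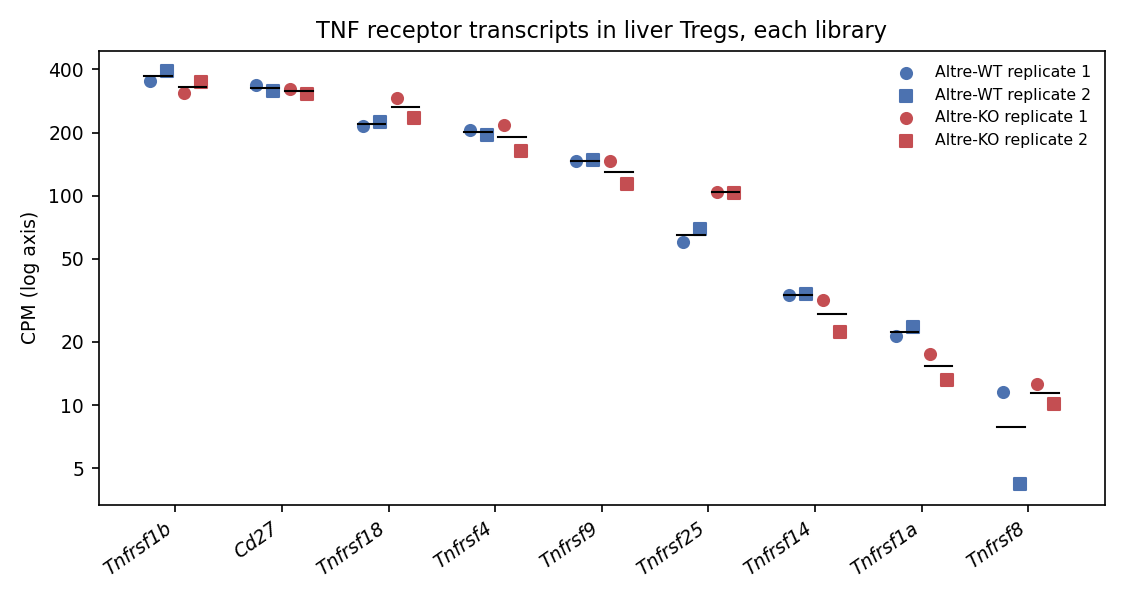
CPM of the 9 receptor genes (y axis, log scale) in each library, blue for Altre-WT and red for Altre-KO, circles for replicate 1 and squares for replicate 2, with black lines at the means of the 2 libraries. Tnfrsf25 lies at 60.2 and 69.4 CPM in Altre-WT and 104 and 103 in Altre-KO.

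Over the set, 3 of the 9 genes were higher in the knockout means and 6 lower. Their median log2 difference was -0.09, against -0.01 over all 10486 genes tested. The genotypes did not overlap for 5 of the 9, among 30.8% of all tested genes. Of these, 2 were higher, Tnfrsf25 and Tnfrsf18, among 14.7% of all, and 3 were lower, Tnfrsf1b, Tnfrsf1a and Tnfrsf14, among 16.1% of all. By limma, 0 of the 9 passed an adjusted p of 0.05, where 0.0381% of all tested genes did (4 genes), and limma-voom called 0 of the 9. At an unadjusted p under 0.05 there was 1 of the 9, Tnfrsf25, against 3.66% of all genes. As the set was chosen with this comparison known, nothing is read from these counts.

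Knockout replicate 2 was the lowest library for 5 of the 9 genes (Tnfrsf1a, Tnfrsf4, Tnfrsf9, Tnfrsf14 and Cd27), and for 27.7% of all tested genes. Without it, 5 of the 9 were higher and 4 lower. Without knockout replicate 1, which has the largest share of reads on listed genes and the lowest Foxp3, the split was again 3 higher and 6 lower.

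**Figure D3:**
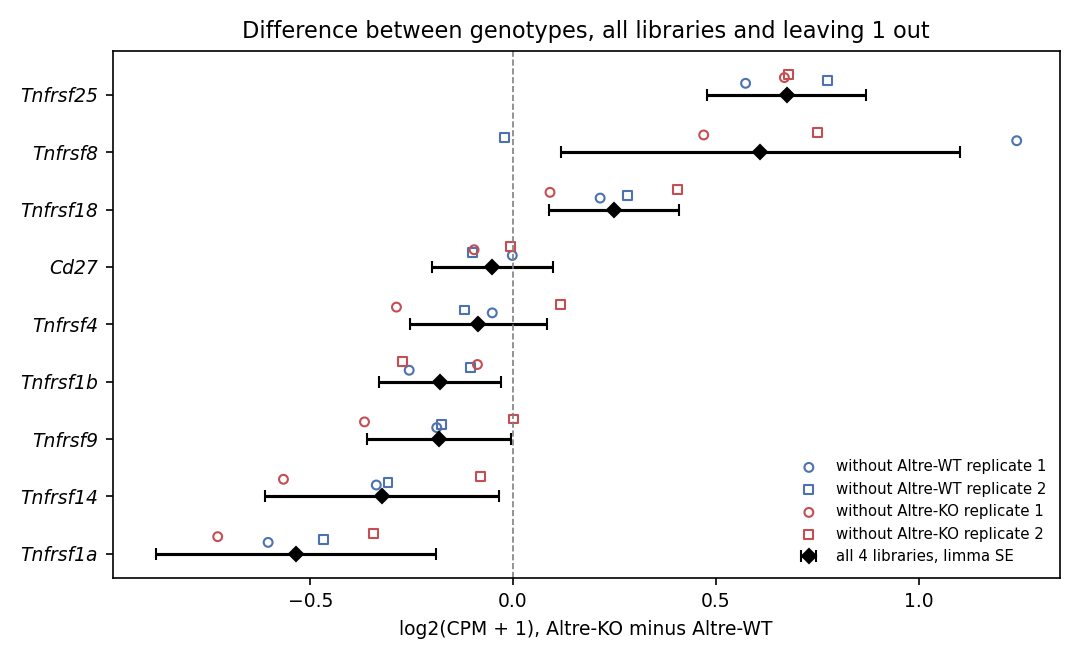
Difference of each receptor gene between genotypes (x axis, log2(CPM + 1), Altre-KO minus Altre-WT): black diamonds show all 4 libraries with the limma SE, and open symbols leave out 1 library each. Tnfrsf25 stays between 0.57 and 0.78, while Tnfrsf8 runs from -0.02 to 1.24.

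By the profile over the 4 libraries, the genes most like Tnfrsf25 among 7287 genes with a mean of at least 20 CPM were Krcc1, Siae and Exosc6. Likeness was the root mean square difference of centred log2(CPM + 1) values over 4 libraries, at 0.041, 0.044 and 0.057. Krcc1 was at 48.7 and 56.8 CPM in Altre-WT and 79.6 and 80.0 in Altre-KO. Siae, an esterase that removes acetyl groups from sialic acids, was at 16.4 and 18.1 against 26.9 and 28.8 CPM. Exosc6, a subunit of the RNA exosome, was at 25.7 and 30.3 against 45.6 and 41.1 CPM. Since Krcc1, Siae and Exosc6 were picked for this likeness, their higher knockout values follow from the choice and support nothing.

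The genes next to the receptors did not share one direction. Plekhg5, 534 bases from Tnfrsf25 on one side, had a log2 difference of -0.40 (SE 0.51), and Espn, 212 bases away on the other, -0.45 (SE 0.64), both at 13.1 CPM or less and with overlapping groups. Sdf4, 233 bases from Tnfrsf4, was at 511 and 497 CPM in Altre-WT and 573 and 417 in Altre-KO, with knockout replicates on either side as for Tnfrsf4. Park7, a redox-protective gene 125 bases from Tnfrsf9, was at 109 and 117 CPM in Altre-WT and 147 and 149 in Altre-KO. Pank4, 35560 bases from Tnfrsf14, was at 68.9 and 50.02 CPM in Altre-WT and 94.3 and 78.8 in Altre-KO. On the other side of Tnfrsf14, Prdm16 was at 10.9 and 9.67 CPM against 4.9 and 8.04. Per3, beyond Tnfrsf9 from Park7, was at 8.2 and 6.31 CPM against 5.82 and 5.93. Without overlap, Park7, Pank4 and 4930417O13Rik (between Cd27 and Tnfrsf1a) were higher, among 14.7% of all tested genes. Prdm16, Per3 and Camta1 were lower, among 16.1% of all, and the other nearest genes outside the set overlapped. None of the genes nearest to a receptor passed (limma adjusted p = 0.999 for each).

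The ligand genes of the family ranged in the same libraries from 0 to 1183 CPM. Of 18 TNF family ligand genes, 10 were tested, 8 of them higher in knockout and 2 lower, with a median log2 difference of 0.16 against -0.01 over all genes. By limma 0 passed an adjusted p of 0.05, 0 had an unadjusted p under 0.05, and limma-voom called 0. The groups did not overlap for 3 of the 10, all higher, among 30.8% of all tested genes without overlap and 14.7% without overlap and higher. Tnfsf15, in both counts of higher genes, passed the filter on low values only through the knockout libraries. Ltb, the lymphotoxin beta gene, exceeded every other ligand at 978 and 868 CPM in Altre-WT and 1183 and 939 in Altre-KO.

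The genes for the ligands of GITR, OX40, CD27 and 4-1BB did not pass the filter on low values. Tnfsf18 and Cd70 were each listed at 0 in 3 of the 4 libraries and at 0.55 CPM or less in the fourth. Tnfsf4 was at 0.55 to 2.12 CPM and Tnfsf9 at 0.84 to 4.23 CPM. Tnfsf8, the CD30 ligand, was by contrast at 61.8 to 74.9 CPM, with 17.8 CPM per kb against 2.77 for its receptor gene Tnfrsf8.

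Tnf was at 53.6 and 47.1 CPM in Altre-WT and 57.3 and 49.1 in Altre-KO, overlapping. The 3 ligands with the smallest p were Tnfsf14, Tnfsf11 and Tnfsf15. Tnfsf14, the LIGHT gene, was at 9.30 and 17.2 CPM in Altre-WT and 25.4 and 19.5 in Altre-KO (log2 difference 0.76, SE 0.38). Tnfsf11, the RANK ligand gene, was at 67.3 and 60.1 against 93.4 and 73.7 CPM (0.38, SE 0.21). Tnfsf15, which encodes the DR3 ligand TL1A, was at 2.19 and 3.78 against 5.21 and 6.35 CPM (0.79, SE 0.61). For Tnfsf14, Tnfsf11 and Tnfsf15 both knockout values lay above both wild-type values, and the limma adjusted p was 0.999. Tnfsf15 reached the filter of 4.22 CPM in the knockout libraries only. It was thus tested because it was high there, and its direction supports nothing. Tnfsf14 and Tnfsf15 were at 0.35 and 0.50 without wild-type replicate 1 (1.18 for Tnfsf14 without wild-type replicate 2), and Tnfsf11 at 0.21 without knockout replicate 1.

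**Figure D4:**
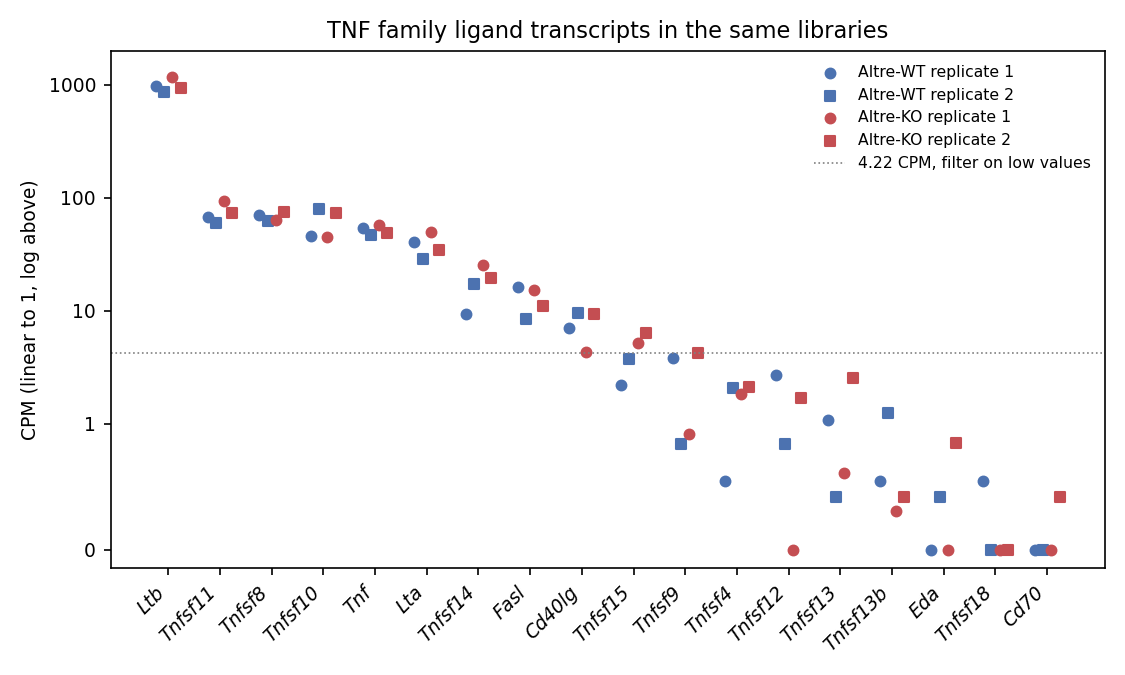
CPM of 18 TNF family ligand genes (y axis, linear up to 1 and log above) in each library, blue for Altre-WT and red for Altre-KO, circles for replicate 1 and squares for replicate 2, with a dotted line at the filter of 4.22 CPM. Ltb lies at 868 to 1183 CPM, and the genes for the GITR, OX40, CD27 and 4-1BB ligands lie at 4.23 CPM or less.

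Of 19 further receptor genes of the family, 7 were tested, 2 higher and 5 lower in knockout with a median log2 difference of -0.15. By limma 0 passed, 0 had an unadjusted p under 0.05, and limma-voom called 0. The other 12, among them Cd40, Ltbr and Tnfrsf17, stayed at 5.46 CPM or less in each library. Fas, the death receptor, was at 52.0 and 48.3 CPM in Altre-WT and 44.1 and 39.4 in Altre-KO (log2 difference -0.26, SE 0.24). Relt, at 83.1 and 53.8 against 77.5 and 48.7 CPM, and Tnfrsf26, at 52.0 and 52.1 against 79.9 and 47.0 CPM, overlapped. Relt and Tnfrsf26 were named after their values were seen. Tnfrsf13b and Tnfrsf10b, the next by p after Fas, reached 9.80 CPM at most, with log2 differences of 0.66 (SE 0.61) and -0.58 (SE 0.55). Without knockout replicate 1 they were at 0.08 and -0.15, and without knockout replicate 2 at 1.24 and -1.01.

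Downstream of the receptors, all 33 adaptor and enzyme genes passed the filter. In knockout 19 were higher and 14 lower, with a median log2 difference of 0.02 and a range of -0.29 to 0.41. By limma 0 passed, 0 had an unadjusted p under 0.05, and limma-voom called 0. Ripk1, the kinase that TNFR1 recruits, was at 89.7 and 98.4 CPM in Altre-WT and 121 and 107 in Altre-KO (log2 difference 0.27, SE 0.18). Rnf31, the catalytic subunit of the linear ubiquitin ligase, had a log2 difference of -0.29 (SE 0.20) and its partner Sharpin 0.29 (SE 0.21). Without knockout replicate 1, Rnf31 was at -0.16 and Ripk1 at 0.18, and without wild-type replicate 1 Sharpin was at 0.05. Traf1, an adaptor of TNFR2 and 4-1BB, was at 172 and 164 CPM in Altre-WT and 149 and 158 in Altre-KO, while Traf2, Traf5 and Tradd overlapped between genotypes. These 4 were named for their role, after their values were seen.

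All 11 genes in the list of NF-kB subunits and inhibitors were tested, with 7 higher, 4 lower and a median log2 difference of 0.04. Rela had a log2 difference of -0.34 (SE 0.20), at 114 and 90.8 CPM in Altre-WT and 73.2 and 88.1 in Altre-KO. Nfkbiz and Nfkbie, in the same list, had differences of 0.22 (SE 0.15) and 0.28 (SE 0.22). Rela was at -0.18 without wild-type replicate 1, and Nfkbie at 0.12 without knockout replicate 2. Of 20 NF-kB responsive genes, some of which are also in the adaptor and subunit lists, 18 were tested, 7 higher and 11 lower, with a median of -0.10. Irf4, a transcription factor of effector Tregs, was at 71.1 and 102 CPM in Altre-WT and 64.9 and 69.9 in Altre-KO. Its log2 difference was -0.34 (SE 0.21), and -0.08 without wild-type replicate 2. Ccnd2 and Cd83 had log2 differences of -0.19 and -0.21, that of Ccnd2 was -0.09 without knockout replicate 1, and that of Cd83 was 0.03 without knockout replicate 2. By limma 0 genes of either list passed, 0 had an unadjusted p under 0.05, and limma-voom called 0.

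OX40, 4-1BB and CD30 are known to be induced on activated T cells, so markers of Treg state are given beside them. Of 10 genes of activated tissue Tregs, 8 were lower in knockout and 7 lay under both wild-type values in both libraries, which held for 16.1% of all tested genes. Their median log2 difference was -0.35, against -0.01 over all genes. Their summed level was 601 and 574 CPM in Altre-WT and 474 and 485 in Altre-KO. Icos and Ccr8 had the smallest p, at -0.40 (SE 0.17) and -0.84 (SE 0.29). Gata3 and Areg were the 2 higher genes, at 0.39 (SE 0.30) and 0.23 (SE 0.57), and Batf was at -0.06 (SE 0.19). Gata3, Areg and Batf overlapped between genotypes. Of 7 resting T cell genes, 5 were lower, 3 of these without overlap, among 16.1% of all tested genes. Their median was -0.23, and their sum was 2175 and 2160 CPM in Altre-WT and 2091 and 1970 in Altre-KO. None passed (limma adjusted p = 0.999 for all 17, with 3 at an unadjusted p under 0.05, against 3.66% of all tested genes, and limma-voom called 0). As both lists were chosen with earlier results of these data known, nothing is read from these counts. The part of Treg state in the receptor values was not tested.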

How the data were processed

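RNA of liver Tregs from 2 Altre-WT and 2 Altre-KO libraries was measured. The submitters' processing notes name cutadapt, STAR, DESeq2 and build mm10. Their roles and versions, the counter and the annotation were not given. The authors deposited 1 table with RPM values (unit read from the values) and CPM values, and with their own log2 fold changes, p-values and adjusted p-values, whose test the headers do not name. What 1 read is worth was estimated from the smallest steps of the RPM values. Between 92.9% and 93.8% of values above 0 were whole within 0.02 of a read, which is too few for a count model, and reads are therefore given as estimates.

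Genes with at least 4.22 CPM (10 estimated reads at the median depth) in 2 libraries, 10486 in all, were fitted with limma 3.58.1 (R 4.3.3) on log2(CPM + 1) with a mean-variance trend, genotype as the only term and Benjamini-Hochberg adjustment over all of them, at a threshold of 0.05. Fold changes on this scale understate the change of low genes. Levels per length used merged exons of GENCODE M21. Near-identical transcripts were sought with blastn 2.17.0 (at least 95% over at least 100 bases).

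The receptors, the pathway and marker lists and the tests were chosen with earlier results of these data known. Named were all 9 receptors, up to 3 genes per list with the smallest p and the 3 genes most like Tnfrsf25. Of the nearest tested genes, only some were named. Others are said to be chosen after their values were seen, apart from ligands of the 9 receptors, Ltb and cell type markers. The targeted transcript Altre was not analysed here. Scaling, model, filter, pseudocount, threshold, gene length, replicate block and single libraries left out were tried as alternatives. The fitting script was tested on simulated data.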

Additional observations from a re-analysis of the deposited data

How the results depend on the processing

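The 9 receptors and the 73 tested pathway genes gave 0 calls under all alternatives run. The receptors' median log2 difference ran from -0.10 to 0.00 with single libraries left out. Without knockout replicate 2, Tnfrsf4 was at 0.12 and Tnfrsf9 at 0.00, and Cd83 ran from -0.45 without knockout replicate 1 to 0.032 without knockout replicate 2. Without wild-type replicate 2, Tnfrsf8 was at -0.02. Of all tested genes, 4 were called. There was 1 without the mean-variance trend (514 at an unadjusted p under 0.05), 0 without a low-value filter (1305 at an unadjusted p under 0.05), 2 with a pseudocount of 0.1, and 6 to 16 with single libraries left out (16 without wild-type replicate 2, 14 without knockout replicate 2). In these last fits the spread comes only from the other genotype, and the lone library is assumed to vary like it. With the replicate block there were 6. The labels give no pairing, and same-numbered libraries did not deviate together (correlation -0.01). Without gene length, 5 of the 9 receptors had the same place in the order, which Tnfrsf1b then led; per length, all 9 had the same place with each library left out. With 2 libraries a genotype and as few as 10 estimated reads for Tnfrsf8, depth limits the low receptors most.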
